A study of Homo sapiens with 18 samples.

Results

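The 12q13-q14 block is a stretch of human chromosome 12, chr12:57475000-58700000 in hg19, in which ChIP-seq counts of Pol II, the RNA polymerase of protein-coding genes, were high for its form phosphorylated on serine 5. Every region of the deposited table lying between these bounds was taken, which gave 125 of 12123 regions. The bounds were chosen by the counts themselves in these 6 libraries, so the height of the counts is a description here and was not tested. The 59 regions within 3 Mb on either side, 44 to the left and 15 to the right, served as flanks. All regions have the same width, 400 bases from start to end as deposited, so that counts of different regions can be set side by side.

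The counts come from Rh30, an alveolar rhabdomyosarcoma cell line that carries the fusion transcription factor PAX3-FOXO1. In all 6 libraries the fusion protein bore an FKBP tag, through which the small molecule dTAG47 marks it for degradation. The groups were DMSO (the solvent), 500 nM dTAG47 for 2 h and 500 nM dTAG47 for 4 h, with 2 libraries, A and B, in each. Neither separate cultures nor the number of clones behind the tagged line is given in the labels. The p-values therefore measure only how these libraries spread, and that spread may be technical. The other 12 samples of the series were made with other antibodies and were not analysed here.

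Serine 5 of the Pol II C-terminal domain is phosphorylated early in transcription, and this form of the enzyme is found mostly near transcription start sites. The bands 12q13-q14 are amplified in some sarcomas, including some rhabdomyosarcomas with a PAX3 or PAX7 fusion. The block was named for CDK4, the cyclin D-dependent kinase that phosphorylates the retinoblastoma protein, and it also holds GLI1, a transcription factor of the hedgehog pathway, and DDIT3, which encodes the stress-induced factor CHOP. The number of DNA copies was not measured in these files, so more copies of the DNA and more Pol II per copy cannot be told apart.

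In RefSeq (GRCh38.p14), 16 protein-coding genes are listed from GLI1 to CDK4 in the order GLI1, ARHGAP9, MARS1, DDIT3, LOC128125814, MBD6, DCTN2, KIF5A, PIP4K2C, DTX3, ARHGEF25, B4GALNT1, OS9, AGAP2, TSPAN31 and CDK4. MARS1 is the cytosolic methionyl-tRNA synthetase, DCTN2 a subunit of dynactin and KIF5A a neuronal kinesin heavy chain. B4GALNT1 makes the gangliosides GM2 and GD2, and OS9 is a lectin of endoplasmic reticulum quality control. An annotation of hg19 was not used here and coordinates were not converted, so no region was tied to any of these genes, and regions are named by position. For the same reason the muscle identity of the cells was not checked against marker genes.

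Promoters are where this form of Pol II gathers, and those of 2 of the genes that name the block are shown for that reason. Each sequence is the 250 bases before the RefSeq start, 5′ to 3′ on the minus strand of GRCh38.p14, at chr12:57752311-57752560 for CDK4 and chr12:57520515-57520764 for DDIT3. These positions cannot be set against those of the hg19 regions. Capitals mark CACGTG, the E-box that MYC-family factors recognise, in CDK4, and mark TGACTCA, the AP-1 motif, and the CCAAT box on either strand in DDIT3.
CDK4: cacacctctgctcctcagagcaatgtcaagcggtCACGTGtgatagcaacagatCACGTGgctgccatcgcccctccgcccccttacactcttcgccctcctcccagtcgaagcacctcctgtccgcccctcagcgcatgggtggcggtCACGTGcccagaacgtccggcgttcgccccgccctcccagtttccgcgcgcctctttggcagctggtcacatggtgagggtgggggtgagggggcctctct
DDIT3: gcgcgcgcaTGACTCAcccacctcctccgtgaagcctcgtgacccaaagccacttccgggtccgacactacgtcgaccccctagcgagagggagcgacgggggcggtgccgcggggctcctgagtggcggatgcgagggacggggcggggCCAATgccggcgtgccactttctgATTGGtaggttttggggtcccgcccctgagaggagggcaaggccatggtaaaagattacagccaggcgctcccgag

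The CDK4 promoter held CACGTG 3 times, starting at bases 35, 55 and 150 of the printed sequence. Of 27058 RefSeq promoters of 250 bases, 6.31% held this motif on either strand. DDIT3 held TGACTCA once, at base 10, a motif present in 4.29% of promoters, and CCAAT at bases 151 and 175, present in 32.9%. The table matched 10 of the 16 genes from GLI1 to CDK4. Among these 10, CACGTG was found in 1, TGACTCA in 1, CCAAT in 5, the GC box GGGCGG in 7 and the TATA motif TATAAA in 0, against 41.5% and 11.3% of all promoters for the last pair. Motifs were searched on both strands, and those in capitals do not overlap one another. A match describes the letters only.

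The block held more regions and more counts than any other stretch of its length that was compared. Its 125 regions in 1.225 Mb made 102 regions per Mb, against 14.7 in the left flank and 5.0 in the right. Cut into stretches of 1.225 Mb, the rest of the table gave 1936 stretches with at least 1 region. They had a median of 5 regions and at most 47. Summed over the 6 libraries, the block had 356599 counts, and the highest of the other stretches had 120939. The block's bounds were chosen by its counts, whereas the other stretches were cut on a fixed grid along each chromosome. The comparison therefore favours the block. Between 3.89% (DMSO library A) and 4.50% (4 h library B) of a library's counts fell in the block, while its regions were about 1% of the table.

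Counts were compared between libraries as CPM, counts per 1000000 counts of the library after TMM scaling, which uses a trimmed mean of ratios. The median block region had 207 CPM in library A and 237 CPM in library B of DMSO, 219 and 258 CPM at 2 h, and 226 and 278 CPM at 4 h. The median flank region had 84.2 and 91.0 CPM in DMSO, 95.7 and 100.3 CPM at 2 h, and 99.6 and 97.0 CPM at 4 h. The ratio of these medians was 2.46 and 2.60 in DMSO, 2.28 and 2.57 at 2 h, then 2.27 and 2.87 at 4 h. The block therefore stood above its flanks in every library, and the ratios of the 3 groups overlapped. Against the median over all regions, between 63.0 and 64.9 CPM, the block was 3.20 to 4.35 times as high.

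The height was shared by nearly all members. Averaged over the 6 libraries, 125 of 125 block regions lay above the median of the table and 124 of 125 above the median of the flanks. The exception was the first region inside the left bound, chr12:57475475-57475875, with 64.3 and 80.7 CPM in DMSO. The highest flank region, chr12:56511762-56512162, had a mean of 425 CPM over the 6 libraries, and 22 block regions exceeded it. The block supplied 3 of the 10 highest regions of the whole table and 29 of the 100 highest.

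**Figure D1:**
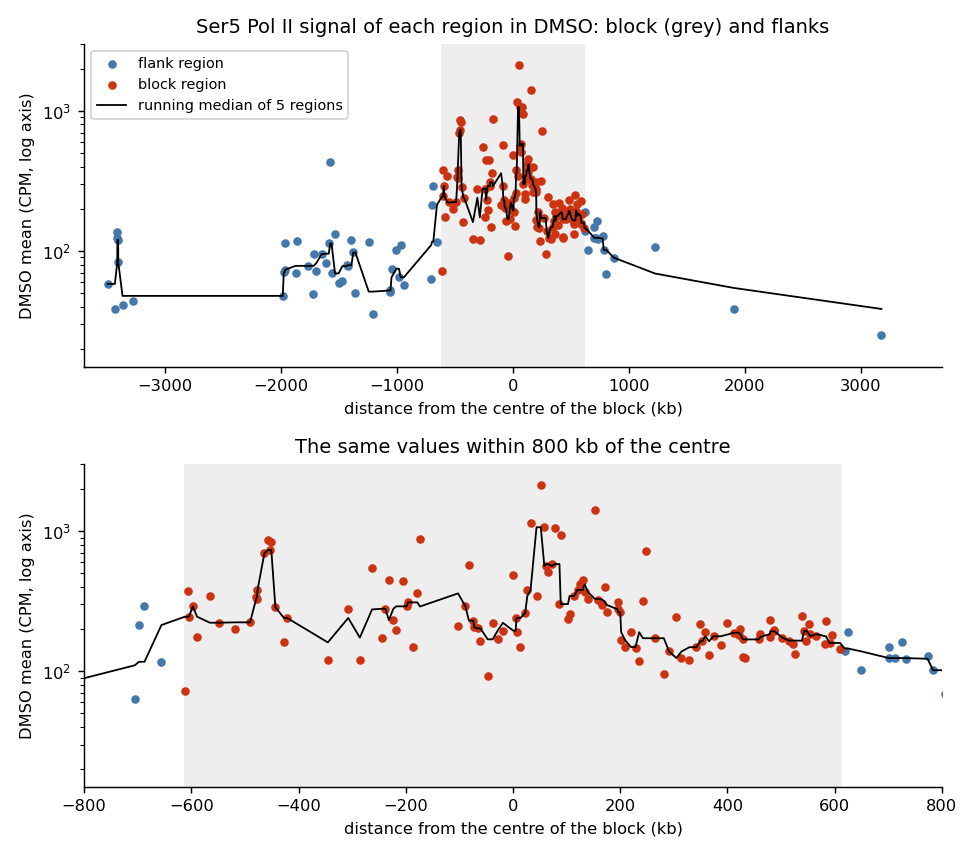
Mean CPM of the 2 DMSO libraries (vertical axis, logarithmic) for each region of the block (red, on grey) and of the flanks (blue), by distance from the centre of the block in kb, with a running median of 5 regions (black line). Block regions reach 2124 CPM near the centre and settle at 124 to 250 CPM over the last 245 kb, and the values do not drop at the right bound.

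The bounds of the block differed from each other. At the left bound, the 3 regions just outside, chr12:57389444-57389844, chr12:57399991-57400391 and chr12:57431579-57431979, had 214 ± 10.9, 292 ± 21.8 and 117 ± 11.8 CPM in DMSO (SD, n = 2). The 3 just inside, starting at 57475475, 57482057 and 57482762, had 72.5 ± 11.7, 376 ± 19.1 and 245 ± 45.8 CPM. The signal was thus above the flank median before the bound was reached, and the lowest region of the block lay just within it. Farther left, the 40 flank regions up to 57145926 had a median of 81.3 CPM over the 6 libraries.

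At the right bound no step was seen. The last 3 regions inside, starting at 58677740, 58682514 and 58697446, had 159 ± 38.1, 183 ± 57.8 and 145 ± 42.2 CPM in DMSO, and the first 3 outside, at 58705988, 58712221 and 58736289, had 139 ± 30.0, 189 ± 27.7 and 101 ± 25.02 CPM (SD, n = 2). Closely spaced regions went on to chr12:58956124-58956524. The 12 regions from the bound to there had a median of 141 CPM over the 6 libraries, with a range of 71.4 to 214. The last 3 of them, starting at 58870883, 58893309 and 58956124, had 102, 69.1 and 89.8 CPM in DMSO. These levels were near the flank medians of the DMSO libraries, 84.2 and 91.0 CPM. After a gap, the remaining 3 regions of the right flank, from 59313628 to 61266535, had 103, 36.9 and 23.6 CPM. These divisions of the flanks were made after the values had been seen.

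The block was not uniform inside. It was divided into 5 windows of 245 kb, numbered from left to right, which held 19, 15, 31, 30 and 30 regions. Their median levels over the 6 libraries were 317, 279, 310, 233 and 205 CPM. Regions over 500 CPM numbered 4, 3, 10, 3 and 0. In the third window the highest region was 20.5 times the lowest, with values from 109 to 2232 CPM. In the fifth it was 1.92 times the lowest, with values from 144 to 277 CPM. The 30 regions of the fifth window were closely spaced, with a median of 6.45 kb from start to start. The right end of the block was thus filled with many regions of similar, moderate height, and the peaks of the block stood in its left and middle parts.

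The 12 highest regions held 30.6% of the block's counts. The highest, chr12:58139214-58139614, ranked 4th of all and had 2145 CPM in library A and 2103 CPM in library B of DMSO, 2393 and 2302 CPM at 2 h, and 2151 and 2296 CPM at 4 h. The next, chr12:58239915-58240315, had 1359 and 1479 CPM in DMSO, 1458 and 1537 CPM at 2 h, and 1349 and 1425 CPM at 4 h. The third, chr12:58145783-58146183, had 1060 and 1070 CPM, then 1191 and 1082 CPM, then 1167 and 1112 CPM. None of these 3 regions was called at either time: their log2 fold changes at 2 h were 0.14, 0.08 and 0.09 with standard errors of 0.19, 0.18 and 0.17 (edgeR adjusted p = 0.811, 0.908 and 0.878). With scaling by the summed flank counts these changes were 0.01, -0.05 and -0.03.

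The others among the 12 started at 57914019, 58165628, 58120036, 58176410, 57630049, 57636484, 58335284, 57623592 and 57633756, with means over the 6 libraries from 1112 down to 708 CPM. Of the 12, 5 lie between 58120036 and 58176810. A run of 4 lies in the first window between 57623592 and 57636884. Apart from chr12:57475475-57475875, the lowest members of the block were chr12:58040166-58040566, with a mean of 109 CPM, and chr12:58368725-58369125, with 120 CPM.

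After 2 h of dTAG47, Ser5 Pol II rose at 1 of the 125 block regions and fell at none of them (edgeR quasi-likelihood test over all 12123 regions, Benjamini-Hochberg adjusted p under 0.05). Of all regions 2.22% of rose and 0.396% fell, so the block's share of rises, 0.8%, was no larger than the background. In the flanks 2 of 59 regions rose and 0 fell. Without adjustment, 13 block regions (10.4%) were higher at p under 0.05 and 0 were lower, against 8.88% and 5.44% of all regions. In the flanks 10 of 59 regions (16.9%) were higher and 0 lower. Both 2 h libraries lay above both DMSO libraries in 25 block regions and below them in 10, that is 20% and 8%, against 21.9% and 21.8% of all regions. DESeq2 and limma-voom also called 0 block regions lower at 2 h.

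The region that rose at 2 h was chr12:57914019-57914419, the fourth highest of the block and 11th of all. It had 894 CPM in library A and 851 CPM in library B of DMSO, 1352 and 1320 CPM at 2 h, and 1189 and 1064 CPM at 4 h. Both libraries at each time of dTAG47 lay above both DMSO libraries, and the gap at 2 h was far larger than the spread within either group. At 2 h the level was 1.53 times that of DMSO (log2 fold change 0.61 with SE 0.17, edgeR adjusted p = 0.0394). At 4 h the log2 fold change was 0.37 (SE 0.17, edgeR adjusted p = 0.340) and was not called. The 2 h call passed with DESeq2 (adjusted p = 0.00322) and limma-voom (0.00375), and with a covariate for the percentage of each library taken by the 3 highest of all regions (log2 fold change 0.68, adjusted p = 2.65e-10). That covariate also made the region a rise at 4 h (0.48, edgeR adjusted p = 0.00175). With 3 groups and the covariate fitted to 6 libraries, few degrees of freedom were left for the spread. The covariate also differed between the groups and is not fully separable from dTAG47, so its p-values are not stronger support. The 2 h call was lost without DMSO library A, DMSO library B, 2 h library A or 2 h library B (log2 fold changes 0.65, 0.59, 0.60 and 0.64). It was also lost with total count scaling (0.55, edgeR adjusted p = 0.0821) and with scaling by the flank counts (0.48, adjusted p = 0.152).

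**Figure D2:**
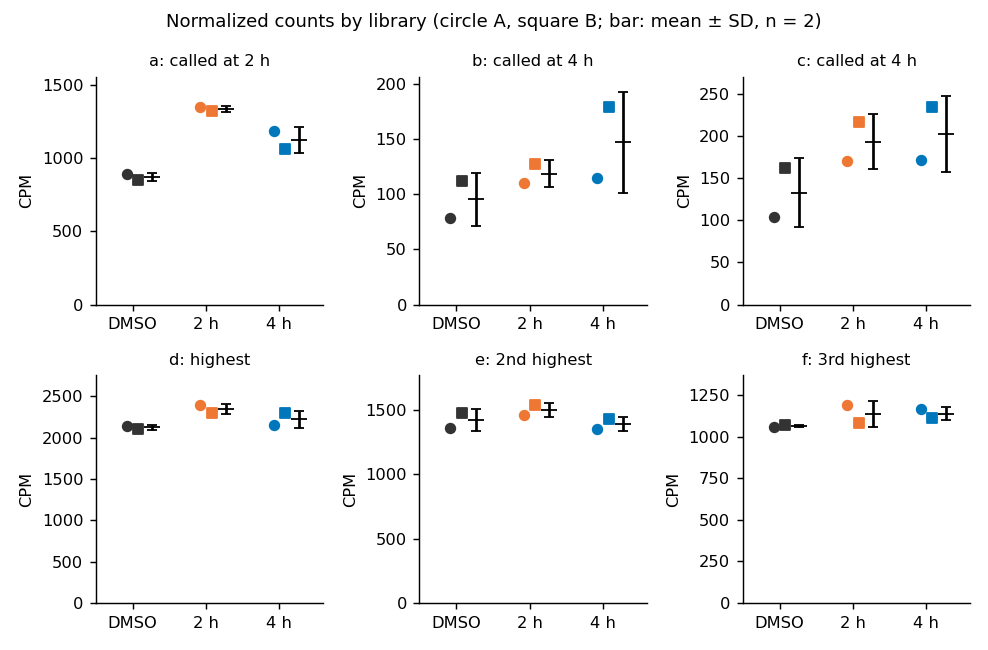
CPM in each library (circles, library A; squares, library B) with mean ± SD (n = 2) in DMSO, 2 h and 4 h of dTAG47 for 6 block regions, each axis starting at 0. Panel a starts at 57914019 and its 2 h libraries lie at 1320 and 1352 CPM, above DMSO at 851 and 894. Panels b and c start at 58368725 and 58613971, where library B is above library A in every group. Panels d, e and f start at 58139214, 58239915 and 58145783 and show similar levels in the 3 groups.

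The other 4 regions with the largest changes at 2 h all had positive log2 fold changes that did not pass the threshold. They were chr12:58613971-58614371 (0.55, edgeR adjusted p = 0.0620), chr12:58516961-58517361 (0.54, 0.0563), chr12:58212239-58212639 (0.49, 0.114) and chr12:58474631-58475031 (0.47, 0.109). Of these, only the region at 58212239 was high, with 393 and 439 CPM in DMSO and 545 and 620 CPM at 2 h. The other 3 lie in the fifth window and had 104 to 174 CPM in the DMSO libraries.

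After 4 h, 2 of the 125 block regions rose and 0 fell, or 1.6% and 0%, against 1.52% and 0.487% of all regions (edgeR, adjusted p under 0.05). The share of rises was that of the background. No flank region was called in edgeR at 4 h. Without adjustment, 35 block regions (28%) were higher and 1 (0.8%) was lower at p under 0.05, against 8.2% and 5.09% of all regions. The flanks were similar to the block, with 14 of 59 regions (23.7%) higher and 1 (1.69%) lower. Both 4 h libraries lay above both DMSO libraries in 27 block regions and below them in 11, that is 21.6% and 8.8%, against 20.2% and 20.6% of all regions. DESeq2 called 0 regions of the block lower and limma-voom 1.

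The first of the 4 h rises, chr12:58613971-58614371, had 104 CPM in library A and 162 CPM in library B of DMSO, 170 and 216 CPM at 2 h, and 171 and 234 CPM at 4 h (log2 fold change 0.60 with SE 0.17, edgeR adjusted p = 0.0451). The other, chr12:58368725-58369125, had 78.3 and 112 CPM in DMSO, 110 and 127 CPM at 2 h, and 115 and 179 CPM at 4 h (0.60, SE 0.17, adjusted p = 0.0486). In both, the 4 h libraries lay above the DMSO libraries, but 4 h library A exceeded DMSO library B only slightly. Library B was above library A in each group, and in DMSO and at 4 h the distance between them was of the size of the change. With the same covariate, the log2 fold changes were 0.13 and 0.08 (edgeR adjusted p = 0.782 and 0.918). Both calls were also lost without DMSO library A (0.30 and 0.34) and without 4 h library B (0.39 and 0.29). The same held with total count scaling (0.55 and 0.54, edgeR adjusted p = 0.0934 and 0.0988) and with DESeq2 (adjusted p = 0.395 and 0.454). Scaling by the flank counts lost them as well (0.46 and 0.46, edgeR adjusted p = 0.182 and 0.195).

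The remaining regions among the 5 largest changes at 4 h were chr12:58322651-58323051 (log2 fold change 0.57, edgeR adjusted p = 0.0533), chr12:57644130-57644530 (0.56, 0.0661) and chr12:58474631-58475031 (0.56, 0.0533). None passed the threshold. With the covariate their log2 fold changes, in the same order, were 0.14, 0.11 and 0.15. Without 4 h library B they were 0.36, 0.25 and 0.30, and without 4 h library A 0.80, 0.84 and 0.82. The region at 57644130 had 259 and 315 CPM in DMSO, 361 and 398 CPM at 2 h, and 338 and 512 CPM at 4 h, so that every treated library was above both DMSO libraries.

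In the other direction, 1 region was singled out after its values had been seen. This was chr12:57610748-57611148, with 307 and 352 CPM in DMSO, 265 and 289 CPM at 2 h, and 232 and 233 CPM at 4 h. Its levels at the 3 times did not overlap. The log2 fold change was -0.25 at 2 h (SE 0.15, edgeR adjusted p = 0.449) and -0.50 at 4 h (SE 0.15, adjusted p = 0.0675), neither past the threshold. At 4 h it was called lower with total count scaling (-0.55, edgeR adjusted p = 0.0414), with limma-voom (-0.50, adjusted p = 0.0360) and with the covariate (-0.59, adjusted p = 0.00201). Scaling by the flank counts and a fit with the column letter as a replicate block called it as well. It was not called with median of ratios scaling, with TMM factors from the regions outside the block, with DESeq2 or with only the 2 groups compared. Leaving out any single library did not make it a call either. Total count scaling and scaling by the flank counts also moved the 4 h median of all regions, to -0.06 and -0.15. Its neighbours chr12:57609825-57610225 and chr12:57608363-57608763 had 4 h values of -0.25 and -0.08 on the same scale.

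Between 2 h and 4 h, edgeR called 0 block regions and put 0 of them under an unadjusted p of 0.05 in either direction. Of all regions 0% were called, and 1.2% were higher and 2.07% lower at 4 h without adjustment. DESeq2 and limma-voom called 0 as well. The lowest p-values in the block belonged to chr12:58610262-58610662 (log2 fold change 0.33, SE 0.17), chr12:58322651-58323051 (0.29, SE 0.16) and chr12:57630049-57630449 (-0.28, SE 0.17), each with an edgeR adjusted p of 0.998. The last of these is among the 12 highest regions and had 838 and 886 CPM in DMSO, 849 and 886 CPM at 2 h, and 690 and 737 CPM at 4 h. This lack of calls is no evidence of equal levels. The log2 fold change was above 0 in 82 of the 125 block regions, against 49.5% of all regions, with a block median of 0.04. That median turned to -0.11 without 4 h library B, to -0.04 without 2 h library A and to -0.07 with the covariate. Without 4 h library A it was 0.19, and without 2 h library B 0.14. The direction between the times thus hung on single libraries.

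With TMM scaling, the median log2 fold change of the 12 highest regions was 0.05 at 2 h, with a range of -0.23 to 0.61, and -0.01 at 4 h, with a range of -0.27 to 0.37. At 2 h 8 of the 12 were above 0, and at 4 h 6. None was called at 4 h (lowest edgeR adjusted p = 0.340), while with the covariate the region at 57914019 was. With scaling by the flank counts, 3 of the 12 were above 0 at 2 h and 1 at 4 h, with medians of -0.08 and -0.16. The median over all regions was -0.01 at both times.

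The summed counts of the block were set against those of the flanks. The log2 ratio of summed block counts to summed flank counts was 2.71 in library A and 2.79 in library B of DMSO, 2.73 in each 2 h library, and 2.69 and 2.74 at 4 h. Its mean differed by -0.03 at 2 h and -0.04 at 4 h (exact permutation test, two-sided p = 1 and 0.667, n = 2 per group). With 2 libraries against 2 this test cannot go below 0.333, so it could not show a change. With the bounds drawn in by 50 kb the differences were -0.05 and -0.08, and neither treated group overlapped DMSO. The same permutation test then gave its floor, p = 0.333, at both times, which share the DMSO libraries, so the separation shows no change either. Without DMSO library B the differences were 0.01 and 0.001.

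With TMM scaling, the change of the median block region on the log2 scale was 0.13 after 2 h and 0.16 after 4 h, close to the 0.15 and 0.15 of the flanks, against -0.01 and -0.01 over all regions. The sign of the block's median turned with the covariate, to -0.04 and -0.10, and with scaling by the flank counts it was -0.002 and 0.01. With total count scaling, which moved the median of all regions to -0.07 and -0.06, it was 0.07 and 0.10. Above 0 were 93 and 94 of the 125 block regions with TMM, against 48.4% and 48.6% of all regions, and 43 and 34 with the covariate. The 2 comparisons share the DMSO libraries, and the covariate is not fully separable from dTAG47.

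The change varied along the block with TMM scaling, the only setting used for the windows. At 2 h the median log2 fold changes of the 5 windows, from left to right, were 0.01, 0.05, 0.09, 0.14 and 0.23. At 4 h they were -0.01, -0.06, 0.08, 0.19 and 0.33. In the fifth window 28 of 30 regions were above 0 at 2 h and 30 of 30 at 4 h, against 48.4% and 48.6% of all regions. This window held 17 of the 35 block regions that were higher at an unadjusted p under 0.05 at 4 h. Of all regions, 8.2% were higher in this way. The fifth window is the one of many similar regions of moderate height. The positive medians did not stop at its bound. The next 245 kb, in the right flank, had medians of 0.20 and 0.23, with 11 of 11 regions above 0 at 4 h. The nearest window of the left flank, with 4 regions, had -0.07 and 0.01, and the leftmost, with 7, had 0.31 and 0.30. With the covariate, the median of the whole block was -0.04 at 2 h and -0.10 at 4 h.

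The libraries of a single group also differed along the block. In DMSO, the median log2 ratio of library B to library A was 0.16, 0.15, 0.12, 0.29 and 0.40 in windows 1 to 5, and in the fifth window library B was higher in 30 of 30 regions. At 4 h the ratio was 0.48 in the fifth window, and at 2 h 0.25. Over the whole block, library B was the higher in 109 of 125 regions in DMSO, 102 at 2 h and 107 at 4 h, or 87.2%, 81.6% and 85.6%. Among all regions the shares were 50.3%, 50.8% and 49.8%. The right flank, next to the fifth window, showed the same: library B was the higher in 15 of its 15 regions in DMSO, 14 at 2 h and 13 at 4 h, with a median log2 ratio of 0.39 in DMSO, against -0.02 in the left flank. In the fifth window the difference between the DMSO libraries was thus larger than the median change at either time.

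**Figure D3:**
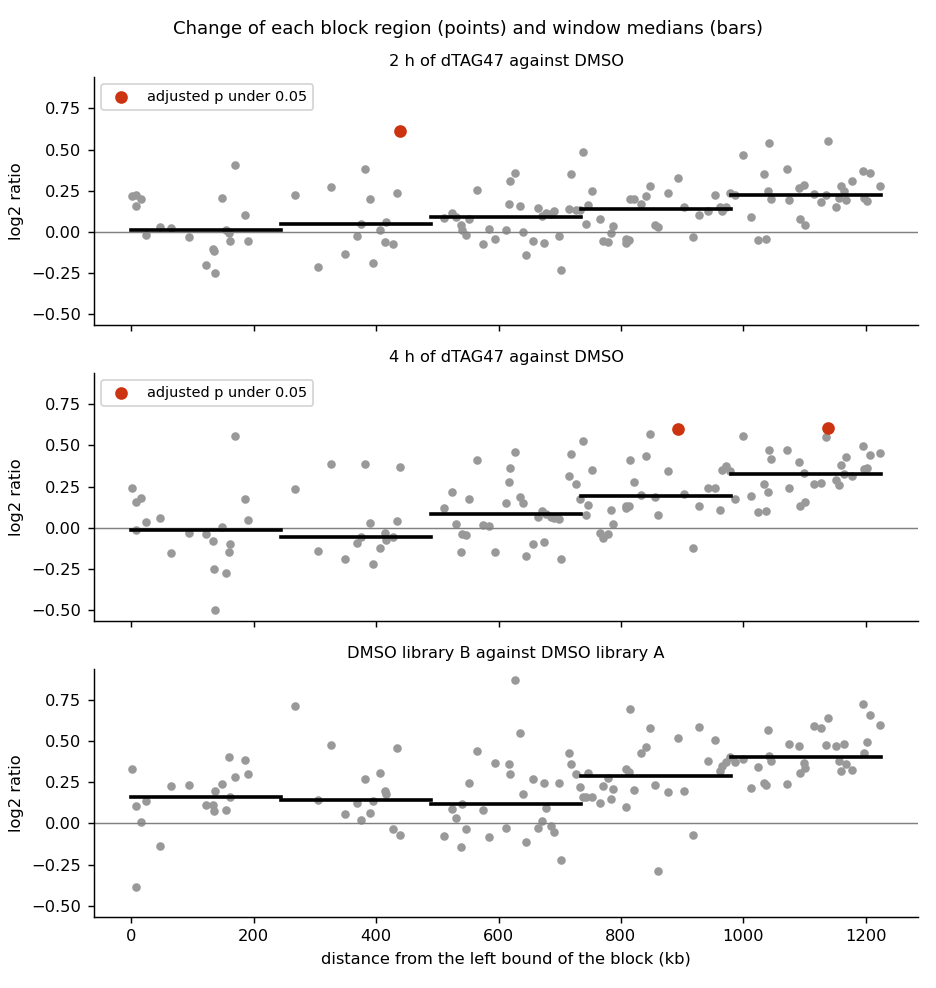
Log2 ratio of each of the 125 block regions (points) by distance from the left bound in kb, at 2 h against DMSO, at 4 h against DMSO, and for DMSO library B against DMSO library A, with the median of each of 5 windows (bars) and called regions in red. In all 3 panels the bar of the fifth window is the highest, at 0.23, 0.33 and 0.40.

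The share of a library's counts in the 3 highest regions of the table, which lie outside the block, moved with these values. It was 1.77% in library A and 2.61% in library B of DMSO, 2.61% and 3.21% after 2 h, then 2.61% and 4.17% after 4 h. In each group it was higher in library B, and it was lowest in DMSO library A. The median of the fifth window was 154 CPM in library A and 204 CPM in library B of DMSO, 192 and 222 CPM at 2 h, and 185 and 260 CPM at 4 h, so that DMSO library A was lowest and 4 h library B highest here too. The first window had 289 and 315 CPM in DMSO, 311 and 315 CPM at 2 h, and 307 and 320 CPM at 4 h. The part of this share in the changes along the block was not tested beyond the fit with the covariate. Since the share differed between the groups, that fit does not fully separate it from dTAG47.

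**Figure D4:**
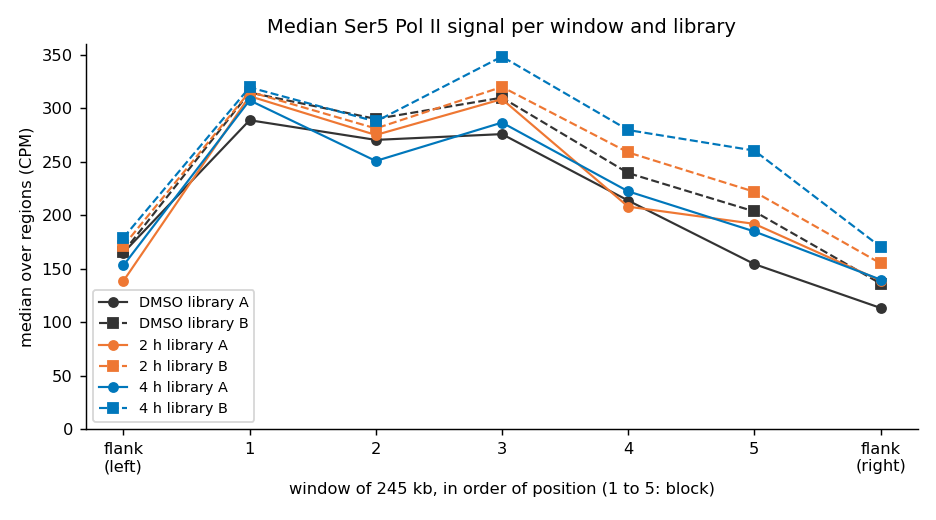
Median CPM over the regions of each window of 245 kb, for the 5 windows of the block and the nearest window of each flank, in the 6 libraries (solid lines and circles, library A; dashed lines and squares, library B). The libraries lie within 289 to 320 CPM in the first window and spread from 154 to 260 CPM in the fifth, where library B is above library A in each group.

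Libraries of a group differed in the block by more than sampling noise. Chi-square per degree of freedom between the 2 libraries of a group was 5.79, 2.67 and 6.07 in the block for DMSO, 2 h and 4 h, against 2.33, 1.5 and 2.26 over all regions, where 1 stands for sampling noise alone. The block's median region had 384 and 346 counts in the DMSO libraries, and the median over all regions was 120 and 92. The chi-square grows with the count for the same relative difference, so the block and the table are not on an equal footing in it. The median standard error of a log2 fold change at 2 h was 0.157 in the block, 0.154 in the flanks and 0.169 over all regions.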

How the data were processed

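Ser5 Pol II ChIP-seq of 6 libraries was analysed. The authors deposited raw counts per region, with totals from 962251 to 1792013 per library. Per the submitters' processing notes, the tools named are DESeq2, DiffBind, MACS2, Bowtie2 and Trimmomatic 0.32, and the builds are dm3 and hg19. For the calling and counting of regions, and any use of an input or of fly reads, the sources used here give no steps. Column letters were tied to groups, not to the labels' replicate numbers.

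Counts were tested with edgeR 4.0.16 in R 4.3.3 (TMM, quasi-likelihood, 3 groups in 1 fit, Benjamini-Hochberg over 12123 regions, threshold 0.05). The standard error is the fold change over the square root of F. filterByExpr removed 0 regions. No spike-in was used in the scaling here, so a change of all regions by 1 factor would not be seen. Alternatives used DESeq2 1.42.0 and limma 3.58.1, other scalings and samples. Windows, ratios and motifs were computed in Python 3.11.15 with scipy 1.17.1. Libraries of a group differed by more than sampling noise and were each counted once.

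The members and lists were chosen with earlier results of these data known. Named were the called regions, the 5 largest changes per time, the 12 highest and 3 lowest regions, 3 regions on each side of each bound, and the 3 lowest p-values between the times. Planned gene lists and cell type markers were not used, since no region was tied to a gene. Promoters are from RefSeq (GRCh38.p14).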

Additional observations from a re-analysis of the deposited data

How the results depend on the processing

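The numbers of called regions were small and moved with most settings. At 2 h the 1 called region became 0 with total count scaling, with scaling by the flank counts (chosen after the data had been seen) and at a threshold of 0.01, and 3 with limma-voom or a threshold of 0.10, and 4 with only the 2 groups compared. It was 0 without DMSO library A or 2 h library B, 2 without 2 h library A, 4 and 5 without 4 h libraries A and B, and 12 without DMSO library B. At 4 h the 2 called regions became 4 with median of ratios scaling, 1 with total count scaling or scaling by the flanks (in both a lower region in place of the rises), 0 with DESeq2 or a threshold of 0.01, 7 with limma-voom, 5 with only the 2 groups compared and 9 at a threshold of 0.10. It was 0 without DMSO library A or 4 h library B, 5 without either 2 h library, 25 without 4 h library A and 27 without DMSO library B. The covariate left 2 calls at 4 h, but they were other regions (57914019 higher and 57610748 lower). At 2 h, too, the calls without 2 h library A and those without DMSO library B did not include the region at 57914019. A replicate block by column letter gave 13 calls at 2 h, all rises, and 34 at 4 h, of which 33 were rises. No label says what a letter stands for, and each comparison has only 2 pairs, but libraries of the same letter deviated together: across regions, which are not independent, the log2 ratios of library B to A had a Pearson r of 0.218, 0.278 and 0.157 between the 3 pairs of groups, and 0.532, 0.778 and 0.549 in the block. Between the times, every alternative called 0.

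The ratio of block to flank medians, 2.52 as the median over libraries, was 2.23 with flanks of 1 Mb, 3.49 against the other regions of chromosome 12, 3.13 with means and 2.26 with bounds drawn in by 50 kb. The log2 change of the block-to-flank ratio turned to 0.0464 at 2 h and 0.0563 at 4 h with all other regions as denominator, and to 0.0106 at 4 h with medians. Without 1 library it ranged from -0.0660 to 0.0141 at 2 h and from -0.0790 to 0.00102 at 4 h, the upper values without DMSO library B. Between the times, the log2 fold change of the region at 58610262 ranged from -0.0296 without 4 h library B to 0.661 without 4 h library A. The cause was not tested. No other region among the calls, the 5 largest changes per time and the 3 lowest p-values between the times changed sign. Of the 12 highest regions, 5 changed sign at each time with scaling by the flank counts, and at most 3 at either time with any other setting.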
